A study of Homo sapiens with 60 samples.

Results

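The AP-1 genes of the FOS and JUN families are 7 genes: FOS, FOSB, FOSL1, FOSL2, JUN, JUNB, and JUND. They were taken by gene name from a count table of 62703 genes and were read in all 60 libraries of the series. All 7 passed the filter on low counts, which left 12341 genes for testing. FOS and FOSB passed it only through the groups in which they were high, so their passing is no evidence of a response. Counts of members that include FOS or FOSB are therefore not read against the share of all genes printed beside them.

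AP-1 is a dimer of basic leucine zipper proteins. JUN proteins pair with one another or with a FOS protein, whereas FOS proteins need a JUN partner, and the dimer binds short DNA sites in promoters and enhancers. FOS, FOSB, JUN, and JUNB are immediate-early genes that cells switch on within the first hours of a growth or stress signal, largely through MAP kinases, and AP-1 is a known responder to metals and oxidative stress, also in astrocytes. FOSL1 and FOSL2 lack the strong activation domain of FOS and FOSB, JUNB is a weaker activator than JUN at many sites, and JUND is present in most resting cells.

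All libraries came from 1321N1, a human line derived from an astrocytoma. In full medium, cells received arsenic as sodium metaarsenite at 2.55 µM, cadmium chloride at 2.3 µM, or mercury chloride at 20 µM, or were left non-treated. RNA was taken after 1.5, 3, or 6 h and after 12 or 24 h, with 3 libraries in each of the 20 groups. Doses were set by the study to be equally toxic, so the groups share 1 line and differ in the molar dose of the metal, and a metal effect and a dose effect cannot be told apart. The series describes the triplicates as technical, so p values measure the spread between these libraries and may not cover that between independent cultures. In these bulk samples a change per cell and a change in which cells are present cannot be told apart.

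Total counts ranged from 2215276 to 4404609 per library, and a count of 3 corresponded to between 0.681 and 1.35 CPM (counts scaled to a common depth by the TMM-normalized library size). Of the astrocyte markers checked, GFAP was at 0 in 57 libraries and S100B in 59, and AQP4 and ALDH1L1 were at 0 in all 60, so the line lacked the defining markers of mature astrocytes. SOX9 (29.6 to 123 CPM) and GJA1 (10.3 to 41.6 CPM) were present in every library, as were VIM, CD44, and FN1. Reads came from the 3′ ends of transcripts, so levels did not grow with gene length, and CPM of different genes are set side by side on that basis. Whether genes differed in how fully their ends were counted was not tested. No other annotated gene overlapped the last 400 exonic bases of a member on either strand. Of the 50-base stretches in these ends, 4.49% for FOSL1 and 0.711% for FOSB also occurred in a transcript of another gene, and 0% for the other 5.

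The sequences before the starts of 5 members are shown, since 4 of them (FOS, FOSB, JUN, and JUNB) passed the test as higher with mercury at 24 h, and JUND carries the only complete CRE among the 6 members with a sequence. They are RefSeq sequences of GRCh38.p14, in which 6 of the 7 members matched an entry. Each is the 200 bases that end at the base before the start, 5′ to 3′ on the gene's own strand. The start is that of RefSeq, which for FOS, FOSB, and JUN differs by a base or a few from the gene boundaries given below. Capitals mark TGACGT (the core of the cAMP response element, CRE), TGACGTCA (the complete CRE), TGACTCA (the TRE, the classical AP-1 site), or TGACATCA (a TRE-like site), on either strand.
FOS: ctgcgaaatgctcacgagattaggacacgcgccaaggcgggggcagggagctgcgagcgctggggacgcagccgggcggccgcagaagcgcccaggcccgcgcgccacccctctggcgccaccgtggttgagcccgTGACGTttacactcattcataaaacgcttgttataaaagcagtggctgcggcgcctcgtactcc
FOSB: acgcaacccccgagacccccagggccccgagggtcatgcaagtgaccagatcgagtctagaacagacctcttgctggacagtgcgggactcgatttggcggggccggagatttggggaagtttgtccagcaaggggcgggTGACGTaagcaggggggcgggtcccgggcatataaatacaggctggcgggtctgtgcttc
JUN: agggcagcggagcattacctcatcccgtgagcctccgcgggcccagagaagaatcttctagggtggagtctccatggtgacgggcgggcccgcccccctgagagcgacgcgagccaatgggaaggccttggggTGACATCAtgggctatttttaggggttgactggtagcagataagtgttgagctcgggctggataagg
JUNB: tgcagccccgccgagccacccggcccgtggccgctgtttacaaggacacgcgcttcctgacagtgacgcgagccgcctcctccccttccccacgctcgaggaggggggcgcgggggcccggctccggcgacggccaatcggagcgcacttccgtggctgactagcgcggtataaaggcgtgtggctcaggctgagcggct
JUND: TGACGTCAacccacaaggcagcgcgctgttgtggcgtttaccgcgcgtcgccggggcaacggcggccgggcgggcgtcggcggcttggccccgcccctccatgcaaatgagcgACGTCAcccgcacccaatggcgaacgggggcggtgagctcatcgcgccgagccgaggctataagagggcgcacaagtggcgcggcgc

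These stretches lie at chr14:75278628-75278827 on the plus strand for FOS, chr19:45467796-45467995 on the plus strand for FOSB, chr1:58784048-58784247 on the minus strand for JUN, chr19:12791286-12791485 on the plus strand for JUNB, and chr19:18281623-18281822 on the minus strand for JUND. The TGACGT core lay at -64 to -59 from the start in FOS and at -60 to -55 in FOSB. The same core was at -66 to -61 in FOSL2, which also held the TRE, TGACTCA, at 5 to 11 bases into the transcript, the only TRE in the 6 windows. In JUN the TRE-like TGACATCA lay at -67 to -60, and in JUND the complete TGACGTCA lay at -200 to -193 with a further core at -87 to -82. The letters of none of these sites occurred in the 300-base window of JUNB (250 bases before and 50 after the start), which says nothing of the factors that act on it. Over 35116 promoter windows of the same length, TGACGT was found in 7.98%, TGACGTCA in 1.85%, TGACTCA in 4.95%, and TGACATCA in 2.61%, and the CRE contains the core. The CArG box, the site of serum response factor, was found in 1.29% of all windows and in 0 of the 6 members'. Bases farther than 250 before the start were not searched, so the 0 does not mean that these genes lack the site.

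In the 15 non-treated libraries, JUN was the most abundant member and FOS and FOSB were at the detection floor. JUN (chromosome 1, 58776845 to 58784048, minus strand) ranged from 249 to 287 CPM with a median of 271. FOSL1 (chromosome 11, 65892049 to 65900573, minus strand) ranged from 85.5 to 143 CPM with a median of 108. FOSL2 (chromosome 2, 28392448 to 28417317, plus strand) ranged from 82.1 to 107 CPM with a median of 102. These 2 Fos-related genes overlapped in range over the 15 libraries. JUNB (chromosome 19, 12791486 to 12793315, plus strand) ranged from 56.1 to 129 CPM with a median of 88.6, the widest relative spread of the 5 abundant members. JUNB overlapped with FOSL1 and FOSL2 over all times together, but at 3 h (56.1 to 69.0 CPM) and 6 h (63.7 to 80.6 CPM) it lay below FOSL1 (108 to 143 and 94 to 118 CPM) and FOSL2 (82.1 to 96.7 and 87.1 to 104 CPM) without overlap. JUND (chromosome 19, 18279694 to 18281622, minus strand) ranged from 34.2 to 64.7 CPM with a median of 46.6. JUND lay below FOSL1 and FOSL2 without overlap and overlapped the low end of JUNB. FOS (chromosome 14, 75278826 to 75282230, plus strand) ranged from 0 to 1.67 CPM with a median of 0.348, and FOSB (chromosome 19, 45467995 to 45475179, plus strand) from 0 to 1.23 CPM with a median of 0.365, so the order of these 2 was not resolved. Coordinates are those of GRCh38.

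The spread of JUNB went with time, also without metal. JUNB gave 129, 109, and 92.5 CPM in the non-treated libraries at 1.5 h and 69.0, 56.1, and 63.7 CPM at 3 h. The 3 h libraries all lay below those of 1.5 h. JUNB was lower at 3 h by an LFC (log2 fold change of the fitted means) of -0.81 ± 0.13 (SE, n = 3 per group, adjusted p = 7.42e-05 by edgeR) and at 6 h by -0.62 ± 0.13 (adjusted p = 0.00559). The call at 6 h was lost without replicate 1 of 1.5 h (LFC -0.50, adjusted p = 0.144 by edgeR) and without replicate 3 of 6 h (-0.55, adjusted p = 0.0869). JUNB was 1 of 7 members called at 3 h, where 0.122% of all genes tested were called in either direction, and 1 of 7 at 6 h, where 0.486% were. At 12 h 4.09% and at 24 h 3.29% of all genes were called against 1.5 h, and 0 members were by edgeR, with 1 and 2 members at an unadjusted p under 0.05 and 0 and 1 called by DESeq2. The 24 h member called by DESeq2 was FOSL1 (LFC -0.39, adjusted p = 0.0462 by DESeq2). The medium was replaced when the metals were added, and whether it was replaced in non-treated cells is not given in the sources used here. Each metal was compared with non-treated cells of the same time.

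**Figure D1:**
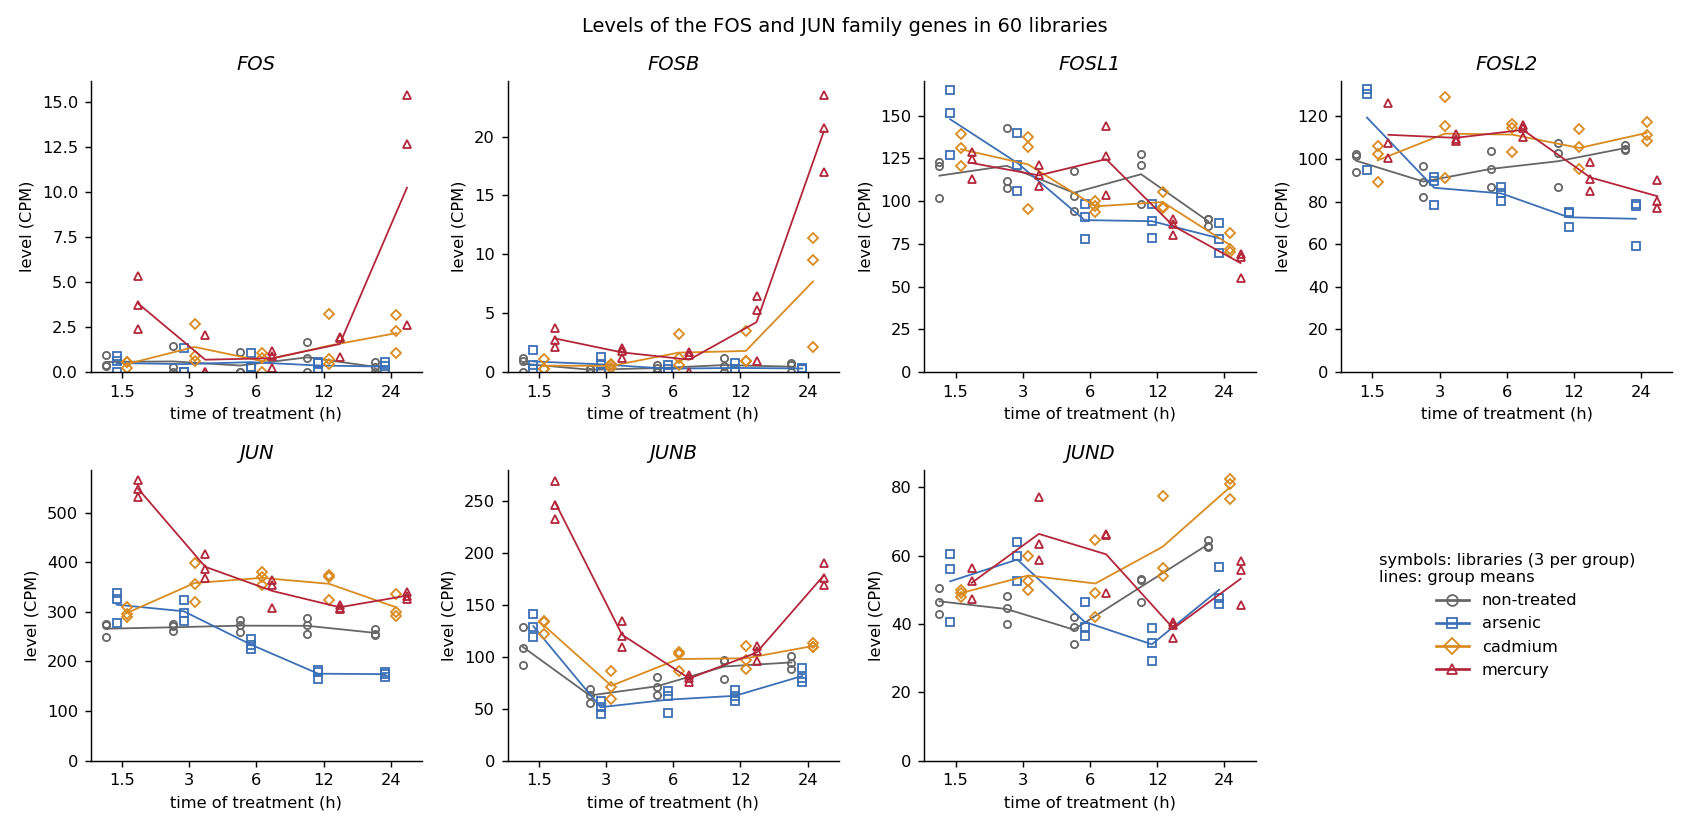
Level in CPM (vertical axis, linear, a scale for each gene) of the 7 members against time of treatment in h, with 3 libraries per group as symbols and lines through the group means (grey circles non-treated, blue squares arsenic, orange diamonds cadmium, red triangles mercury). The 3 mercury libraries at 1.5 h stand above all others for JUN (532 to 566 CPM) and JUNB (233 to 269 CPM), and FOSB reaches 17.0 to 23.5 CPM with mercury at 24 h.

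Mercury raised JUN and JUNB at the first time point. JUN, the strongest activator of its family, gave 547, 532, and 566 CPM with mercury at 1.5 h against 276, 274, and 249 CPM in non-treated cells. All 3 mercury libraries lay far above the non-treated ones, and the JUN level was higher by 2.06-fold (LFC 1.04 ± 0.08 SE, adjusted p = 2.02e-15 by edgeR). JUNB gave 246, 233, and 269 CPM against 129, 109, and 92.5 CPM. The groups did not overlap, and JUNB was higher by 2.26-fold (LFC 1.18 ± 0.12, adjusted p = 1.29e-11 by edgeR). These were 2 of 7 members at 1.5 h, where 0.478% of all genes tested were higher with mercury and 0.0891% lower. FOSL1, FOSL2, and JUND had LFCs of 0.09 to 0.17 and did not pass the test (adjusted p = 0.997 each by edgeR).

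FOS and FOSB, whose products pair with JUN proteins, had few counts at 1.5 h. With mercury FOS gave 2.40, 5.32, and 3.70 CPM against 0.953, 0.348, and 0.397 CPM. The mercury libraries were all above the non-treated ones, with 44 counts in all against 5, a ratio of 6.47 (95% counting interval 2.57 to 20.9), but the difference did not pass the test (adjusted p = 0.454 by edgeR). FOSB gave 2.13, 3.72, and 2.72 CPM against 0.953, 0, and 1.19 CPM. These groups did not overlap either, with 33 counts against 6 and a ratio of 4.04 (1.67 to 11.8), and FOSB did not pass the test (adjusted p = 0.731 by edgeR). The intervals cover counting error only, not the spread between libraries.

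At 3 h JUN gave 369, 417, and 386 CPM with mercury and 271, 275, and 261 CPM without. The groups stayed apart, with an LFC of 0.54 ± 0.08 (adjusted p = 2.54e-06 by edgeR). The effect of mercury on JUN was smaller at 3 h than at 1.5 h by an LFC of 0.50 when the change itself was tested (LFC -0.50 ± 0.12, adjusted p = 0.0465 by edgeR), where 0.113% of all genes passed. This test of adjacent times was added after the values were seen and was not rerun without single libraries. JUNB gave 109.6, 134, and 121 CPM against 69.0, 56.1, and 63.7 CPM at 3 h, without overlap (LFC 0.95 ± 0.12, adjusted p = 4.61e-08 by edgeR). JUNB fell over the same hours in non-treated cells, and the change of its mercury effect, with an LFC of -0.23, did not pass the test (95% interval -0.57 to 0.12). JUND, the member known for its presence in resting cells, gave 58.7, 63.4, and 77.1 CPM against 40.1, 44.8, and 48.3 CPM at 3 h. The 3 mercury libraries were higher (LFC 0.58 ± 0.15, adjusted p = 0.0168 by edgeR), but the call was lost without replicate 3 of mercury (LFC 0.46, adjusted p = 0.259) and without non-treated replicate 1 (0.50, 0.203) or 2 (0.58, 0.0668). At this time 3 of 7 members were higher against 1.39% of all genes, and none lower against 0.154%.

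At 6 h the early rise of JUNB was no longer seen in the test. JUNB gave 79.6, 82.6, and 75.9 CPM with mercury against 71.2, 80.6, and 63.7 CPM. These groups overlapped (LFC 0.14 ± 0.13, adjusted p = 0.584 by edgeR). JUN remained higher, at 355, 364, and 307 CPM against 259, 284, and 274 CPM, without overlap (LFC 0.33 ± 0.08, adjusted p = 0.00508 by edgeR). JUND gave 66.0, 66.3, and 49.0 CPM against 34.2, 39.0, and 41.9 CPM, without overlap (LFC 0.64 ± 0.15, adjusted p = 0.00231 by edgeR). So 2 of 7 members were higher, with 4.49% of all genes higher and 2.99% lower.

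At 12 h the members moved apart. FOSB gave 5.31, 6.46, and 0.958 CPM with mercury against 0.558, 1.23, and 0 CPM. Replicates 1 and 2 were high and replicate 3 lay within the non-treated range, with 36 counts against 6 in all, a ratio of 7.19 (95% counting interval 3.00 to 20.9). FOSB passed the test (LFC 2.80 ± 0.82, adjusted p = 0.0110 by edgeR), but not without replicate 2 of mercury (LFC 2.33, adjusted p = 0.101) or without non-treated replicate 3 (2.20, 0.0861), and the LFC was 3.79 without non-treated replicate 2. FOSL1, a FOS family member without the strong activation domain, gave 86.6, 89.5, and 80.5 CPM against 128, 121, and 98.5 CPM. The mercury libraries were all lower (LFC -0.44 ± 0.13, adjusted p = 0.0122 by edgeR). The FOSL1 call was lost without replicate 3 of mercury (LFC -0.39, adjusted p = 0.0694) and without non-treated replicate 1 (-0.35, 0.108) or 2 (-0.39, 0.0549). JUND gave 35.9, 39.7, and 40.6 CPM against 53.3, 53.0, and 46.5 CPM and did not pass (LFC -0.39 ± 0.15, adjusted p = 0.0706 by edgeR), although the groups did not overlap. The counts were 1 of 7 higher (FOSB) and 1 of 7 lower (FOSL1), with 8.89% of all genes higher and 7.16% lower. The lower count stood near the background. The higher count is not read against it, since FOSB was tested only because it was high in some groups.

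With mercury at 24 h, FOS and FOSB reached their highest group means. FOSB gave 23.5, 17.0, and 20.8 CPM against 0.771, 0.613, and 0 CPM. All mercury libraries were high, with 193 counts against 5, a ratio of 42.1 (95% counting interval 17.7 to 131), and the fitted LFC was 5.34 ± 0.77 (adjusted p = 6.86e-08 by edgeR). FOS gave 15.4, 12.7, and 2.64 CPM against 0, 0.307, and 0.576 CPM. Replicate 3 was well below the other mercury libraries but above all non-treated ones, with 98 counts against 3 and a ratio of 35.6 (11.8 to 176). The fitted LFC of FOS was 5.0 ± 0.95 (adjusted p = 2.77e-05 by edgeR) and lay between 4.42 without non-treated replicate 1 and 5.86 without non-treated replicate 3, and passed the test without any 1 library. The LFC of FOSB lay between 4.81 without non-treated replicate 3 and 5.94 without non-treated replicate 1, and it too passed each time.

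In the same libraries JUNB was high again. JUNB gave 191, 176, and 169 CPM with mercury at 24 h against 94.5, 88.6, and 101 CPM. The groups were far apart (1.88-fold, LFC 0.91 ± 0.12, adjusted p = 4.21e-09 by edgeR), and the mercury effect was larger than at 12 h by an LFC of 0.71 ± 0.17 (adjusted p = 0.0232 by edgeR), in a test added after the values were seen that called 0.624% of all genes. JUNB was thus high with mercury at 1.5 and 3 h and at 24 h and did not pass the test at 6 and 12 h. JUN gave 326, 341, and 331 CPM against 266, 255, and 253 CPM at 24 h, without overlap (LFC 0.37 ± 0.08, adjusted p = 0.000337 by edgeR).

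The Fos-related genes went the other way. FOSL1 gave 69.0, 67.4, and 55.0 CPM with mercury at 24 h against 89.4, 89.8, and 85.5 CPM. The mercury libraries were all lower (LFC -0.47 ± 0.13, adjusted p = 0.00544 by edgeR), although the call was lost without mercury replicate 3 (LFC -0.37, adjusted p = 0.0582). FOSL2 gave 80.3, 90.2, and 77.1 CPM against 105, 106, and 104 CPM. It was lower without overlap (LFC -0.35 ± 0.12, adjusted p = 0.0183 by edgeR), but the call was lost without mercury replicate 1 (LFC -0.33, adjusted p = 0.0654) or 3 (-0.30, 0.0877), without non-treated replicate 1 (-0.34, 0.0509) or 2 (-0.34, 0.0515), and with no filter on low counts (-0.34, 0.0666). At 24 h 4 of 7 members were higher, with 13.9% of all genes higher, and 2 of 7 were lower, with 13.9% of all genes lower. The 4 include FOS and FOSB, which were tested only because they were high in such groups, so the count is not read against that share. JUND, at 58.4, 55.9, and 45.5 CPM against 62.7, 64.7, and 62.7 CPM, was lower in all 3 mercury libraries without overlap but did not pass (LFC -0.25 ± 0.14, adjusted p = 0.204 by edgeR).

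For FOSL2 and JUND the mercury effect itself fell with time. Between 3 and 24 h the effect of mercury changed by an LFC of -0.65 ± 0.16 for FOSL2 (adjusted p = 0.00476 by edgeR) and of -0.83 ± 0.21 for JUND (adjusted p = 0.00386), so 2 of 7 members changed where 10.0% of all genes did. For FOS the change was 4.67, with an adjusted p of 0.0518 that passed the threshold with the replicate number as a block (0.0446), with no filter on low counts (0.0311), and without mercury replicate 2 of 3 h (0.00438) or replicate 3 of 24 h (0.0299), or non-treated replicate 1 of 3 h (0.0315) or replicate 3 of 24 h (0.0392). The value itself was 9.06 without mercury replicate 2 of 3 h, the library that held all 8 mercury counts of that time, and non-treated cells held 6. It was 2.93 (adjusted p = 0.596 by edgeR) without non-treated replicate 3 of 3 h, so it rests on these libraries.

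**Figure D2:**
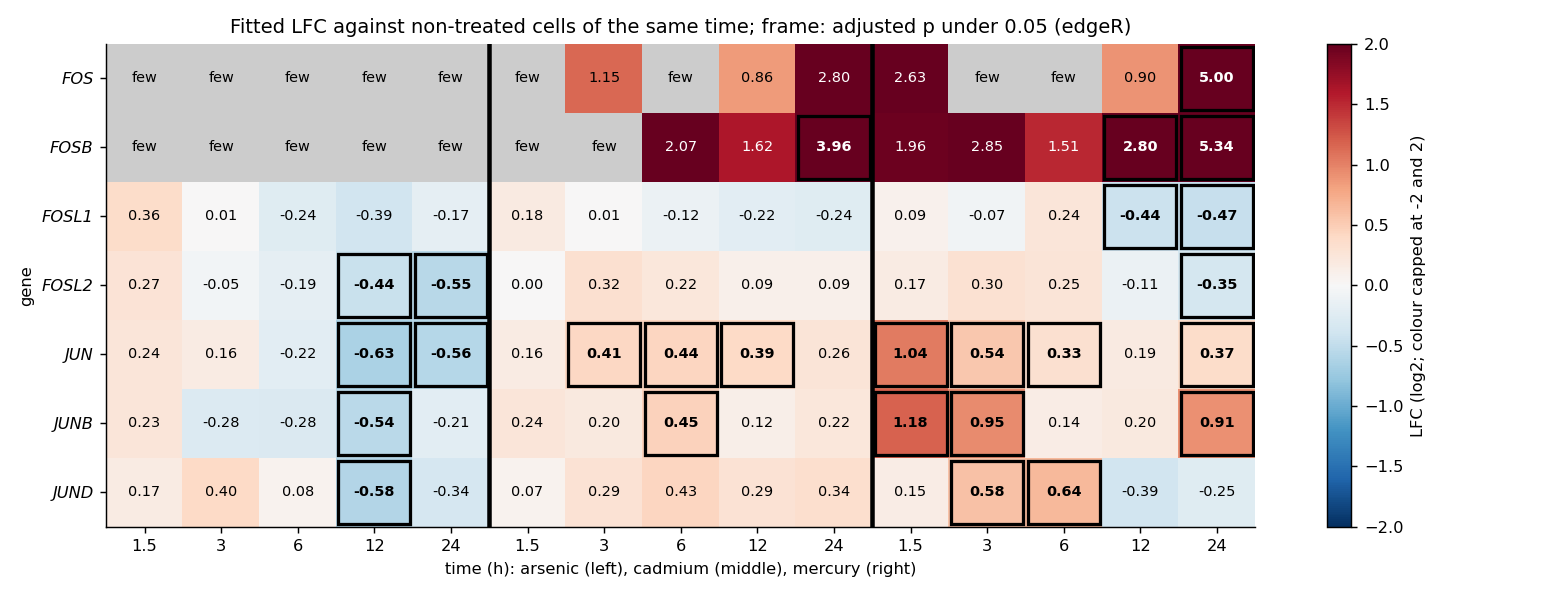
Fitted LFC (log2) of each member (vertical axis) against non-treated cells of the same time, over 5 times in h (horizontal axis) for arsenic, cadmium, and mercury, with frames where the adjusted p of edgeR was under 0.05 and "few" where both groups held at most 9 counts in all. The framed cells are 6 lower for arsenic, 5 higher for cadmium, and 12 higher and 3 lower for mercury, from -0.63 (JUN, arsenic, 12 h) to 5.34 (FOSB, mercury, 24 h).

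With cadmium 5 pairs of member and time were called, and JUN was the member called most often. The shares of all genes at each time are given below. At 1.5 h JUN gave 289.7, 295, and 309.7 CPM with cadmium against 276, 274, and 249 CPM, which did not pass (LFC 0.16 ± 0.08, adjusted p = 0.621 by edgeR). At 3 h JUN gave 398, 355, and 321 CPM against 271, 275, and 261 CPM. The groups did not overlap (1.33-fold, LFC 0.41 ± 0.08, adjusted p = 0.00291 by edgeR), but the call was lost without cadmium replicate 1 (LFC 0.32, adjusted p = 0.245) and without non-treated replicate 3 (0.39, 0.0684). At 6 h JUN gave 381, 354, and 369.9 CPM against 259, 284, and 274 CPM (LFC 0.44 ± 0.08, adjusted p = 0.000269 by edgeR). At 12 h it gave 324, 371, and 375 CPM against 273, 287, and 255 CPM (LFC 0.39 ± 0.08, adjusted p = 0.000558 by edgeR). Neither time showed overlap. With mercury JUN had LFCs of 0.33 at 6 h and 0.19 at 12 h (adjusted p = 0.119 by edgeR), and the direct tests between cadmium and mercury did not pass for JUN at these times. At 24 h JUN, at 300.1, 292, and 335 CPM, did not pass with edgeR (LFC 0.26 ± 0.08, adjusted p = 0.0829) and did with DESeq2 (LFC 0.27, adjusted p = 0.0194) and with the stricter filter on low counts (LFC 0.27, adjusted p = 0.0499 by edgeR).

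JUNB was higher with cadmium at 6 h only by the test, at 103, 86.4, and 105 CPM against 71.2, 80.6, and 63.7 CPM. The groups did not overlap (LFC 0.45 ± 0.13, adjusted p = 0.0384 by edgeR). The call was lost without cadmium replicate 1 (LFC 0.42, adjusted p = 0.131) or 3 (0.41, 0.158), without non-treated replicate 1 (0.46, 0.108) or 3 (0.37, 0.246), with no filter on low counts (0.45, 0.0509), and with only the 6 libraries in the fit (0.46, 0.0792).

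FOSB was the member that rose most with cadmium, at 24 h. It gave 9.52, 11.4, and 2.15 CPM against 0.771, 0.613, and 0 CPM. Replicate 3 was the lowest cadmium library and still above all non-treated ones, with 88 counts against 5 and a ratio of 17.0 (95% counting interval 7.03 to 53.8). The fitted LFC was 3.96 ± 0.79 (adjusted p = 0.000716 by edgeR) and passed without any 1 library, from 3.43 without non-treated replicate 3 to 4.55 without non-treated replicate 1, whereas DESeq2 gave no adjusted p for it. FOS gave 2.27, 3.14, and 1.07 CPM against 0, 0.307, and 0.576 CPM at 24 h. These groups did not overlap either, with 24 counts against 3 and a ratio of 7.74 (2.35 to 40.2), but FOS did not pass the test (adjusted p = 0.198 by edgeR). The other FOS family members had LFCs between -0.24 and 0.32 over the 5 cadmium time points and passed at none. JUND did not pass at any time, with LFCs from 0.07 to 0.43. At 24 h JUND gave 76.6, 82.5, and 81.0 CPM with cadmium against 62.7, 64.7, and 62.7 CPM. These groups did not overlap (LFC 0.34 ± 0.14, adjusted p = 0.261 by edgeR). JUND was also higher without overlap at 3 h (adjusted p = 0.625 by edgeR) and, narrowly, at 6 h (0.159) and 12 h (0.245).

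For cadmium the counts of members were 0 of 7 at 1.5 h, where 0% of all genes were called as higher and 0% as lower, with 1 member at an unadjusted p under 0.05 and 0 called by DESeq2. At 3 h 1 of 7 was higher, with 0.203% of all genes higher and 0% lower. At 6 h 2 of 7 were higher, with 1.60% higher and 0.446% lower among all genes. At 12 h 1 of 7 was higher, with 5.19% higher and 2.99% lower, and at 24 h 1 of 7, with 1.56% higher and 0.632% lower. The member called at 24 h was FOSB, so that count is not read against its share. No member was lower with cadmium at any time by edgeR. Between 3 and 24 h the cadmium effect changed for 0 of 7 members by edgeR, with 0 at an unadjusted p under 0.05 and 0 by DESeq2, where 0.438% of all genes changed.

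Arsenic lowered members, and only at 12 and 24 h by the test. JUN gave 179.7, 164, and 182 CPM with arsenic at 12 h against 273, 287, and 255 CPM. All 3 arsenic libraries were far below (0.646-fold, LFC -0.63 ± 0.08, adjusted p = 5.99e-08 by edgeR). At 24 h JUN gave 179, 175, and 169 CPM against 266, 255, and 253 CPM, again without overlap (0.677-fold, LFC -0.56 ± 0.08, adjusted p = 4.29e-07 by edgeR). At the earlier times JUN was not called: it gave 339, 326, and 278 CPM at 1.5 h against 276, 274, and 249 CPM (LFC 0.24 ± 0.08, adjusted p = 0.260 by edgeR). Without arsenic replicate 3, the lowest of these, JUN passed as higher at 1.5 h (LFC 0.32, adjusted p = 0.0376 by edgeR). At 3 h JUN was higher without overlap (LFC 0.16 ± 0.08, adjusted p = 0.682 by edgeR). At 6 h JUN gave 224, 244, and 233 CPM against 259, 284, and 274 CPM. It was thus already lower without overlap at 6 h, but not called (LFC -0.22 ± 0.08, adjusted p = 0.312 by edgeR). The effect of arsenic on JUN at 24 h was below that at 3 h by an LFC of -0.73 ± 0.12 (adjusted p = 9.64e-06 by edgeR), so a change over time was itself resolved.

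JUNB followed at 12 h, with 67.9, 62.2, and 57.7 CPM against 97.1, 96.4, and 79.2 CPM, without overlap (LFC -0.54 ± 0.12, adjusted p = 0.00353 by edgeR). At 24 h the JUNB libraries, at 79.7, 89.8, and 75.8 CPM against 94.5, 88.6, and 101 CPM, overlapped with the non-treated ones (LFC -0.21 ± 0.12, adjusted p = 0.266 by edgeR). JUND gave 34.4, 38.7, and 29.1 CPM against 53.3, 53.0, and 46.5 CPM at 12 h. It was lower without overlap (LFC -0.58 ± 0.15, adjusted p = 0.0118 by edgeR), but not called without arsenic replicate 3 (LFC -0.48, adjusted p = 0.115) or without non-treated replicate 1 (-0.54, 0.0627) or 2 (-0.55, 0.0600). Between 3 and 24 h the arsenic effect on JUND changed by -0.74 ± 0.21 (adjusted p = 0.0173 by edgeR). That call was lost without arsenic replicate 2 (-0.67, adjusted p = 0.0631) or 3 (-0.71, 0.0514) of 3 h, arsenic replicate 2 (-0.70, 0.0523) or 3 (-0.68, 0.0568) of 24 h, and non-treated replicate 1 of 3 h (-0.66, 0.0725).

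FOSL2 was the FOS family member that fell with arsenic. It gave 75.2, 68.3, and 74.5 CPM at 12 h against 103, 107, and 86.7 CPM, without overlap (LFC -0.44 ± 0.12, adjusted p = 0.0125 by edgeR). The call was lost without arsenic replicate 2 (LFC -0.41, adjusted p = 0.0764) and without non-treated replicate 1 (-0.41, 0.0709) or 2 (-0.38, 0.114). At 24 h FOSL2 gave 77.7, 79.1, and 59.0 CPM against 105, 106, and 104 CPM, all lower (LFC -0.55 ± 0.12, adjusted p = 0.000413 by edgeR), a call that held without any 1 library. FOSL1 gave 98.1, 88.6, and 78.2 CPM at 12 h against 128, 121, and 98.5 CPM and did not pass (LFC -0.39 ± 0.13, adjusted p = 0.0644 by edgeR). It passed with DESeq2 (LFC -0.39, adjusted p = 0.0424), the stricter filter (-0.39, 0.0499), the replicate block (-0.39, 0.0461), and without non-treated replicate 3 (-0.50, 0.0226). FOS held between 3 and 6 counts per group with arsenic and FOSB between 3 and 9, at or near the floor like the non-treated cells, so no fold is given.

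The counts for arsenic were 0 of 7 members at 1.5 h, with 0.0648% of all genes higher and 0.00810% lower, and 3 members at an unadjusted p under 0.05 by edgeR. At 3 h 0 of 7 were called, with 0.122% of all genes higher, 0.0162% lower, and 2 members under that unadjusted p. At 6 h 0 of 7 were called, with 0.608% higher, 0.308% lower, and again 2 members. DESeq2 called 0 members at these 3 times as well. At 12 h 4 of 7 members were lower, where 1.74% of all genes were lower and 2.37% higher. At 24 h 2 of 7 were lower, where 7.75% were lower and 6.54% higher. Of the 4 members called at 12 h, JUN and JUNB remained called without any 1 library. Over the change from 3 to 24 h, 2 of 7 members passed where 6.17% of all genes did. FOSL2 did not (-0.50, adjusted p = 0.0582 by edgeR) but passed with DESeq2 (-0.49, adjusted p = 0.0411) and without arsenic replicate 1 of 3 h (-0.55, 0.0475) or replicate 2 of 24 h (-0.56, 0.0487).

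Set directly against each other, the metals separated the members by time. Positive LFCs below mean that the metal named first was higher. At 1.5 h JUN and JUNB were lower with arsenic than with mercury (LFC -0.80 ± 0.08, adjusted p = 2.88e-11, and -0.94 ± 0.11, adjusted p = 1.77e-08 by edgeR) and lower with cadmium than with mercury (-0.88 ± 0.08, adjusted p = 1.03e-12, and -0.94 ± 0.11, adjusted p = 1.88e-08). Arsenic and cadmium differed in 0 of 7 members at 1.5 h by edgeR, with 1 at an unadjusted p under 0.05 and 0 by DESeq2. Of all genes, 1.56% differed between arsenic and mercury, 0.656% between cadmium and mercury, and 0% between arsenic and cadmium at that time. The 95% interval of the difference between arsenic and cadmium ran from -0.09 to 0.24 for JUN and from -0.24 to 0.23 for JUNB.

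At 3 h JUNB was the member that set mercury apart. It was lower with arsenic by an LFC of -1.23 ± 0.13 (adjusted p = 9.91e-11 by edgeR) and with cadmium by -0.75 ± 0.12 (adjusted p = 2.28e-05). JUN was lower with arsenic than with mercury (-0.38 ± 0.08, adjusted p = 0.00267), a call lost without mercury replicate 2 (-0.32, adjusted p = 0.0567 by edgeR). So 2 of 7 members differed between arsenic and mercury (1.89% of all genes), 1 of 7 between cadmium and mercury (1.78%), and 0 of 7 between arsenic and cadmium (0.138%) by edgeR, with 3 at an unadjusted p under 0.05 and 0 by DESeq2. Without cadmium replicate 3, JUNB differed between arsenic and cadmium as well (-0.60, adjusted p = 0.0441 by edgeR).

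From 6 h on, all members called between arsenic and another metal were lower with arsenic. FOSL1 went the other way without passing, with LFCs of arsenic against mercury of 0.05 at 12 h and 0.29 at 24 h (adjusted p = 0.165 by edgeR, groups without overlap) and of arsenic against cadmium of 0.07 at 24 h. At 6 h JUN was lower with arsenic than with cadmium by -0.65 ± 0.08 (adjusted p = 3.55e-08 by edgeR) and JUNB by -0.74 ± 0.13 (adjusted p = 7.03e-05), 2 of 7 members where 1.18% of all genes differed. DESeq2 also called FOSL2 there (-0.41, adjusted p = 0.0303, against 0.0616 by edgeR). Against mercury 5 of 7 members were lower with arsenic at 6 h, where 4.48% of all genes differed: JUN at -0.55 ± 0.08 (adjusted p = 2.43e-06), JUND at -0.57 ± 0.15 (adjusted p = 0.0117), FOSL1 at -0.48 ± 0.13 (adjusted p = 0.0125), FOSL2 at -0.44 ± 0.11 (adjusted p = 0.0123), and JUNB at -0.43 ± 0.13 (adjusted p = 0.0351 by edgeR). Only the JUN call held without each of the 6 libraries in turn. FOSL2 was lost without arsenic replicate 1 (adjusted p = 0.0670), FOSL1 without arsenic replicate 1 (0.118) or mercury replicate 1 (0.0511) or 2 (0.167), JUNB without arsenic replicate 1 (0.303) or 2 (0.0578) or mercury replicate 1 (0.0960) or 2 (0.133), and JUND without arsenic replicate 2 (0.0623) or 3 (0.0900) or mercury replicate 1 (0.0872) or 2 (0.0923). Cadmium and mercury differed in 0 of 7 members at 6 h by edgeR, with 2 at an unadjusted p under 0.05 and 0 by DESeq2, where 3.78% of all genes differed. Without mercury replicate 3 FOSL1 passed there (LFC -0.49, adjusted p = 0.0198 by edgeR).

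At 12 h JUN was 0.492-fold as high with arsenic as with cadmium (LFC -1.02 ± 0.08, adjusted p = 1.58e-15 by edgeR). JUND (-0.87 ± 0.15, adjusted p = 3.65e-05), JUNB (-0.66 ± 0.13, adjusted p = 0.000198), and FOSL2 (-0.54 ± 0.12, adjusted p = 0.00144) were lower too, 4 of 7 members where 5.77% of all genes differed. Against mercury JUN (-0.82 ± 0.08, adjusted p = 1.84e-11), JUNB (-0.74 ± 0.13, adjusted p = 1.93e-05), and FOSB (-3.39 ± 0.87, adjusted p = 0.00774 by edgeR) were lower with arsenic, 3 of 7 where 6.84% differed. FOSL2 passed there with DESeq2 (-0.34, adjusted p = 0.0418) and not with edgeR (-0.33, adjusted p = 0.0734). The FOSB call was lost without arsenic replicate 1 (-3.25, adjusted p = 0.0541) or 2 (-2.88, 0.0699) or mercury replicate 2 (-2.92, 0.0908). With FOSB among the 3 members called against mercury, that count is not read against its share. JUND was higher with cadmium than with mercury (0.68 ± 0.15, adjusted p = 0.00316 by edgeR), 1 of 7 where 3.29% of all genes differed, and this call was lost without cadmium replicate 1 (0.50, adjusted p = 0.0972).

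At 24 h 5 of 7 members were lower with arsenic than with cadmium, where 10.2% of all genes differed. JUN differed by -0.82 ± 0.08 (adjusted p = 6.33e-12 by edgeR), JUND by -0.68 ± 0.14 (adjusted p = 0.000452), and FOSL2 by -0.64 ± 0.12 (adjusted p = 3.86e-05). JUNB differed by -0.44 ± 0.12 (adjusted p = 0.0117), a call lost without arsenic replicate 3 (-0.39, adjusted p = 0.0645 by edgeR). FOSB, with 3 counts in all with arsenic and 88 with cadmium, had a fitted LFC of -4.52 ± 0.86 (adjusted p = 8.28e-05 by edgeR). Against mercury 4 of 7 were lower with arsenic, where 11.4% of all genes differed: JUNB by -1.13 ± 0.12 (adjusted p = 3.13e-11), JUN by -0.93 ± 0.08 (adjusted p = 5.80e-14), FOS by -4.91 ± 0.95 (adjusted p = 0.000131, with 3 counts against 98), and FOSB by -5.90 ± 0.82 (adjusted p = 1.26e-07 by edgeR, with 3 counts against 193). The fitted values of FOS and FOSB are no bounds at such low counts. Both counts of members at 24 h include genes tested only because they were high in some groups. They are not read against the shares of all genes.

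Cadmium and mercury parted in both directions at 24 h, in 4 of 7 members where 20.0% of all genes differed. The 4 include FOS, so the count is not read against that share. JUNB was lower with cadmium (-0.69 ± 0.12, adjusted p = 6.78e-06 by edgeR), at 113, 109, and 109 CPM against 191, 176, and 169 CPM. FOSL2 (0.44 ± 0.12, adjusted p = 0.00347), at 108, 117, and 111 CPM against 80.3, 90.2, and 77.1 CPM, and JUND (0.58 ± 0.14, adjusted p = 0.00165), at 76.6, 82.5, and 81.0 CPM against 58.4, 55.9, and 45.5 CPM, were higher with cadmium. FOS was lower with cadmium (-2.20 ± 0.71, adjusted p = 0.0200 by edgeR), but the groups overlapped. The FOS call was lost without cadmium replicate 1 (-2.23, adjusted p = 0.0661) or 3 (-1.92, 0.111) or mercury replicate 1 (-1.79, 0.131) or 2 (-2.03, 0.0796). JUN did not pass, with a 95% interval of -0.27 to 0.06.

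**Figure D3:**
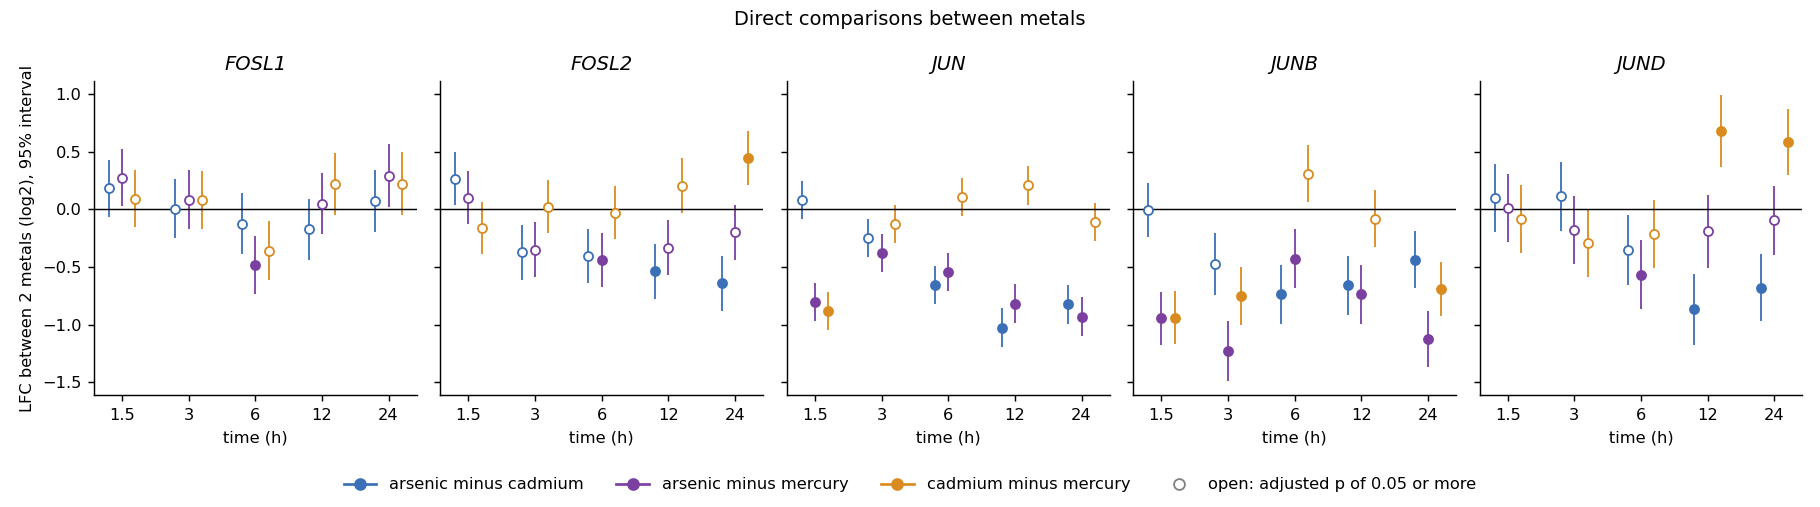
LFC between 2 metals (log2, vertical axis) with its 95% interval for the 5 abundant members at each time in h (blue arsenic minus cadmium, purple arsenic minus mercury, orange cadmium minus mercury), filled where the adjusted p of edgeR was under 0.05. All filled blue and purple points lie below 0, from -0.38 to -1.23, whereas filled orange points lie below 0 for JUN and JUNB and above 0 for FOSL2 (0.44) and JUND (0.68 and 0.58).

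Changes over adjacent times were tested in addition, after the values were seen. Between 1.5 and 3 h 0.0324% of all genes changed in their arsenic effect and 0.0729% in their cadmium effect, and 0 of 7 members did in either by edgeR, with 1 at an unadjusted p under 0.05 in each and 0 by DESeq2. Between 12 and 24 h 1.57% changed for arsenic and 0.381% for cadmium, and 0 of 7 members did by edgeR, with 0 at an unadjusted p under 0.05 and 0 by DESeq2. The mercury changes of JUN and JUNB given above were the calls among these 6 tests. The tests were not rerun without single libraries, so whether a call rests on 1 library is not known.

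Added together, the 7 genes gave between 583 and 638 CPM in the group means of non-treated cells. With mercury at 1.5 h the sum was 1093, 1050.5, and 1127 CPM, above every other library of the series. With arsenic it was 434 ± 18.9 CPM (SD, n = 3) at 12 h and 457 ± 33.4 CPM at 24 h, below the non-treated cells of those times (630 ± 54.9 and 610 ± 6.83 CPM). With cadmium the sum stayed between 696 and 729 CPM in the group means.

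**Figure D4:**
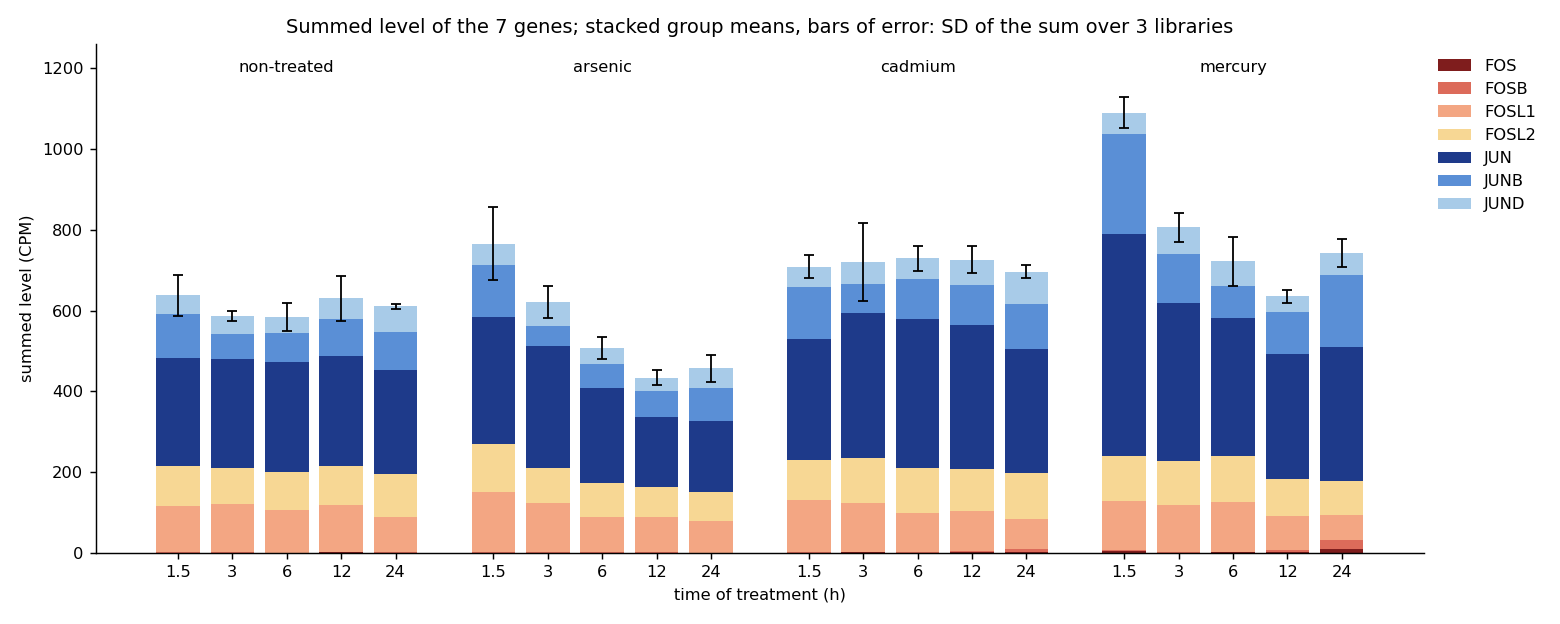
Summed level of the 7 members in CPM (vertical axis, from 0) for each group and time in h, stacked by member as group means, with error bars for the SD of the sum over 3 libraries. The sum is highest with mercury at 1.5 h (1090.2 CPM) and lowest with arsenic at 12 h (434 CPM), and JUN forms the largest part in every group.

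The makeup of this sum also moved. JUN held 41.8% ± 1.14 (SD, n = 3) of it in non-treated cells at 1.5 h and 50.3% ± 0.306 with mercury. JUNB held 17.2% ± 1.59 and 22.9% ± 0.904 at that time, and at 24 h 15.5% ± 1.05 and 24.1% ± 0.915. FOSL1 fell from 14.5% ± 0.380 to 8.58% ± 0.647 at 24 h with mercury. FOS and FOSB, even at their highest, made up 1.35% ± 0.864 and 2.76% ± 0.458. These shares are descriptions without a test, and a rise of 1 member lowers the share of the others.

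Over the 60 libraries JUN and JUNB shared 2 of their 3 most similar genes, HBEGF and IER2, and FOS and FOSB shared 1, ADAMTS1. JUNB was most like IER2 (Pearson r of log2 CPM of 0.875) and EGR1 (0.857), both immediate-early genes, and HBEGF (0.751), a growth factor gene. JUN was most like HBEGF (0.799), MCL1 (0.770), an inhibitor of apoptosis, and IER2 (0.762). FOSB was most like SAT1 (0.759), IER5 (0.756), and ADAMTS1 (0.748), and FOS like ADAMTS1 (0.658), MYLIP (0.641), and SLC2A3 (0.633). FOSL1 was most like ACTG1 (0.810), a cytoplasmic actin gene, PPM1G (0.793), and S100A2 (0.771). FOSL2 was most like RGS4 (0.757), CDCA4 (0.753), and NIBAN2 (0.735), and JUND like NELFA (0.634), TMEM63B (0.583), and IER3 (0.549). Each is the top 3 of 9493 candidate genes, whose counts averaged 20 or more. Among the members, FOSL2 and JUN (0.697) and FOS and FOSB (0.691) were most alike, and FOSB and FOSL1 ran opposite (-0.425). These values are descriptions over libraries that share groups and times.

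AP-1 proteins also dimerize with ATF and MAF proteins, and 10 of 14 such partner genes on a list were tested. In mercury 3 were higher at 1.5 h, 5 at 3 h, and 6 at 6, 12, and 24 h, in cadmium 0, 0, 4, 5, and 2 over the 5 times, and in arsenic 0, 0, 3, 5, and 5, and none was lower by edgeR. Of all genes tested, 0.478%, 1.39%, 4.49%, 8.89%, and 13.9% were higher with mercury over the 5 times, 0%, 0.203%, 1.60%, 5.19%, and 1.56% with cadmium, and 0.0648%, 0.122%, 0.608%, 2.37%, and 6.54% with arsenic. ATF3, a stress-induced partner of JUN proteins, rose from 6.89 ± 0.411 to 92.4 ± 7.34 CPM with mercury at 24 h (LFC 3.74 ± 0.26, adjusted p = 2.24e-19 by edgeR), to 30.2 ± 5.70 CPM with cadmium (2.12 ± 0.27, adjusted p = 2.44e-08), and to 14.5 ± 2.73 CPM with arsenic (1.08 ± 0.29, adjusted p = 0.00653). ATF3 was higher with arsenic at 12 h as well (1.58 ± 0.30, adjusted p = 0.000225 by edgeR), in the libraries in which JUN, JUNB, JUND, and FOSL2 were lower. MAFF, a small MAF protein without an activation domain, was at 99.6 ± 16.1 CPM with mercury at 24 h against 25.1 ± 1.04 CPM (LFC 1.99 ± 0.18, adjusted p = 1.20e-14). MAFK, another small MAF gene, was at 139.6 ± 10.6 against 37.7 ± 6.65 CPM (1.89 ± 0.18, adjusted p = 3.90e-13 by edgeR). The median LFC of the 10 partners with mercury at 24 h was 1.39, against -0.02 over all genes tested.

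**Figure D5:**
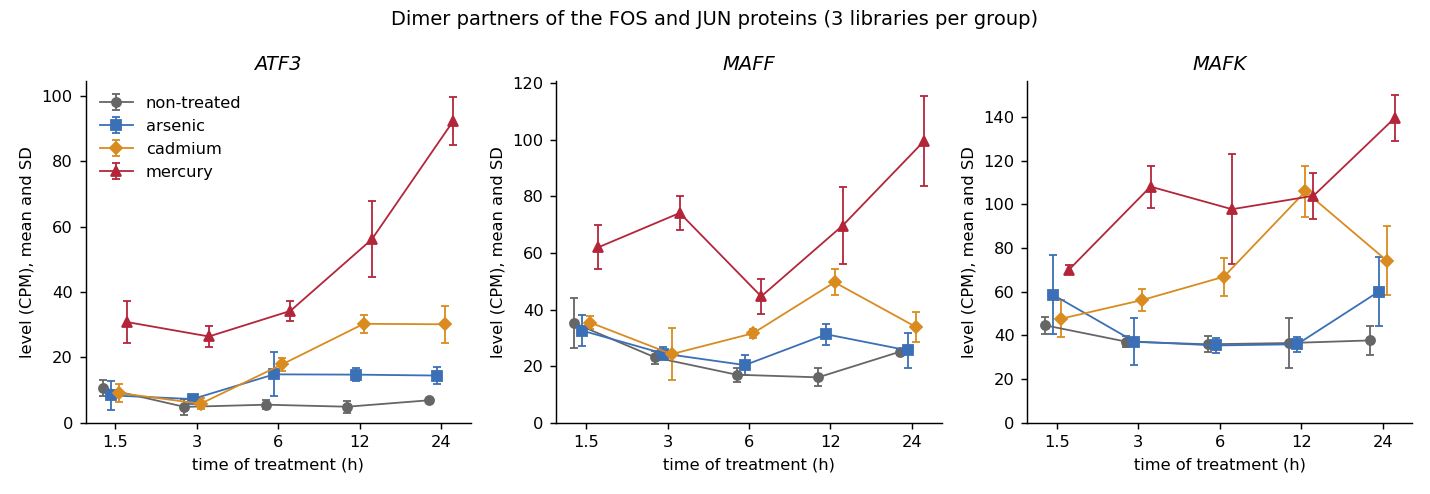
Level in CPM (vertical axis, linear from 0, mean and SD over 3 libraries) of ATF3, MAFF, and MAFK against time in h for the 4 treatments. Mercury is highest at 24 h for all 3 genes (92.4, 99.6, and 139.6 CPM), and ATF3 with arsenic lies at 14.7 CPM at 12 h against 4.92 CPM in non-treated cells.

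Of the kinases and regulators that act on AP-1 genes, 26 of 27 were tested. With mercury 0, 1, 2, 4, and 5 were higher over the 5 times and 0, 0, 0, 1, and 1 lower. With cadmium 1 was higher at 6 h, and 2 higher and 1 lower at 12 h, and with arsenic 1 was lower at 24 h. At 24 h with mercury 13.9% of all genes were higher and 13.9% lower, so 5 of 26 higher stood near the background. With mercury 1.39% and 4.49% of all genes were higher at 3 and 6 h, and 8.89% were higher and 7.16% lower at 12 h. With cadmium 1.60% were higher at 6 h, and 5.19% were higher and 2.99% lower at 12 h. With arsenic 7.75% were lower at 24 h. MAP2K1, the gene of the kinase MEK1, was at 72.5 ± 6.80 CPM with mercury at 24 h against 25.4 ± 13.3 CPM (LFC 1.52 ± 0.26, adjusted p = 4.96e-06 by edgeR). MEF2D (LFC 1.30 ± 0.24, adjusted p = 1.53e-05) and RPS6KA5, the gene of the kinase MSK1 (0.99 ± 0.37, adjusted p = 0.0383 by edgeR), were higher too. At 1.5 h, when JUN and JUNB were already higher with mercury, 0 of these 26 genes passed in either direction by edgeR. Of all genes 0.478% were higher and 0.0891% lower at that time, so 0 of 26 stood near the background.

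Of 27 genes listed as AP-1 targets, 21 were tested. With mercury 2, 6, 8, 10, and 11 were higher over the 5 times and 0, 0, 0, 1, and 1 lower, with cadmium 0, 1, 4, 10, and 6 were higher and none lower, and with arsenic 0, 1, 3, 4, and 6 were higher and 0, 0, 0, 2, and 5 lower. The shares of all genes that were higher are those given for the dimer partners. Of all genes 7.16% and 13.9% were lower with mercury at 12 and 24 h, where 1 of 21 targets was, and 1.74% and 7.75% were lower with arsenic, where 2 and 5 of 21 were. HMOX1, the gene of heme oxygenase 1 and a target of other stress factors as well, was at 2410.2 ± 181 CPM with arsenic at 24 h (LFC 7.55 ± 0.18, adjusted p = 6.33e-44 by edgeR), where JUN and FOSL2 were lower, and at 1899.5 ± 236 CPM with mercury (7.21 ± 0.18, adjusted p = 7.11e-43). MMP3, the gene of stromelysin 1 and a classical AP-1 target, was at 8.27 ± 1.65 CPM with mercury at 24 h, 3.60 ± 2.26 CPM with cadmium, and 1.86 ± 1.46 CPM with arsenic, against 0.0959 ± 0.166 CPM in non-treated cells. It passed in all 3 metals (adjusted p = 4.25e-06, 0.00476, and 0.0196 by edgeR). Its non-treated group means over the 5 times were 0 to 0.635 CPM. MMP3 thus passed the filter only through metal groups, and its passing is no evidence of a response. The non-treated level lay below the floor of 0.681 to 1.35 CPM and the arsenic mean near it, so the size of the rise is not resolved. IL11, a cytokine gene, was at 11.5 ± 2.74 CPM with mercury at 24 h against 1.73 ± 0.611 CPM (LFC 2.72 ± 0.56, adjusted p = 0.000104 by edgeR). IL11 had non-treated group means of 1.31 to 2.23 CPM and also passed the filter only through metal groups. Counts of targets that include MMP3 or IL11 are therefore not read against the shares of all genes.

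Of 15 other immediate-early transcription factor genes, 11 were tested. With mercury 3, 5, 3, 6, and 7 were higher over the 5 times and 1 lower at 24 h, with cadmium 3 were higher at 6 h and 3 at 12 h, and with arsenic 1 was higher at 1.5 h and 4 were lower at 12 h and 4 at 24 h. Of all genes 0.478%, 1.39%, 4.49%, 8.89%, and 13.9% were higher with mercury over the 5 times and 13.9% lower at 24 h, 1.60% and 5.19% were higher with cadmium at 6 and 12 h, and with arsenic 0.0648% were higher at 1.5 h and 1.74% and 7.75% lower at 12 and 24 h. KLF2, a zinc finger factor gene, was at 6.88 ± 2.33 CPM with arsenic at 12 h against 19.4 ± 5.09 CPM (LFC -1.48 ± 0.30, adjusted p = 0.000585 by edgeR) and at 7.87 ± 2.02 against 21.7 ± 1.10 CPM at 24 h (-1.46 ± 0.30, adjusted p = 0.000220). NR4A2, a nuclear receptor gene, was at 24.1 ± 1.43 CPM with mercury at 24 h against 5.06 ± 0.286 CPM (LFC 2.24 ± 0.44, adjusted p = 4.76e-05 by edgeR). NR4A1, its relative, was at 13.2 ± 5.48 against 5.0 ± 0.908 CPM (1.40 ± 0.38, adjusted p = 0.00325 by edgeR). The median LFC of the 11 genes was 0.80 with mercury and -0.24 with arsenic at 24 h, against -0.02 and 0.00 over all genes tested.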

How the data were processed

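RNA of 1321N1 cells was sequenced from transcript 3′ ends (QuantSeq FWD, single-end). The authors aligned reads with STAR 2.7.9a to GRCh38 and counted them per gene in a strand-specific manner, and the deposited values are raw counts without normalization. Here counts were fitted with edgeR 4.0.16 in R 4.3.3 (TMM factors, genes kept by filterByExpr with a minimum count of 10, quasi-likelihood test over all 60 libraries and 20 groups, Benjamini-Hochberg adjustment within each comparison), with an adjusted p under 0.05 as the call. Genes tested numbered 12341 of 62703. CPM used TMM-normalized library sizes. The SE of an LFC was derived from the LFC and the F statistic of its test, so it is approximate. It rests on a spread estimated over all 60 libraries, and the 95% intervals of LFCs used a fixed t quantile. Ratios of FOS and FOSB were summed counts over library totals with 95% exact counting intervals. Rows of 92 spike-ins held 0 counts.

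The members and gene lists were chosen with earlier results of these data known. Named were all members, per list the 3 genes with the largest LFC among those called at 24 h in any metal, and per member the 3 genes with the highest correlation of log2 CPM among genes whose counts averaged 20 or more. Each replicate number is shared across groups, but same-numbered libraries did not deviate together (45 pairs of metal and non-treated groups, highest correlation 0.0837), so the numbers do not pair the libraries. Alternatives were DESeq2 1.42.0, other size factors, other filters, a replicate block, the 6 libraries of a comparison alone, an LFC limit, and leaving out each library in turn. Changes between adjacent times were added after the values were seen. The statistical steps were tested on simulated data.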

Additional observations from a re-analysis of the deposited data

Results flagged for a closer look

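The effects of the metals on the members differed between metals or times by a test of the difference itself (edgeR, adjusted p under 0.05) in 41 values, all LFCs, of which 35 set metals against each other at the same time. Arsenic against cadmium gave -0.65 for JUN and -0.74 for JUNB at 6 h. At 12 h it gave -0.54 for FOSL2, -1.02 for JUN, -0.66 for JUNB, and -0.87 for JUND. At 24 h it gave -4.52 for FOSB, -0.64 for FOSL2, -0.82 for JUN, -0.44 for JUNB, and -0.68 for JUND.

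Arsenic against mercury gave -0.80 for JUN and -0.94 for JUNB at 1.5 h, and -0.38 and -1.23 for the same genes at 3 h. At 6 h it gave -0.48 for FOSL1, -0.44 for FOSL2, -0.55 for JUN, -0.43 for JUNB, and -0.57 for JUND. At 12 h it gave -3.39 for FOSB, -0.82 for JUN, and -0.74 for JUNB, and at 24 h -4.91 for FOS, -5.90 for FOSB, -0.93 for JUN, and -1.13 for JUNB. Cadmium against mercury gave -0.88 for JUN and -0.94 for JUNB at 1.5 h, -0.75 for JUNB at 3 h, 0.68 for JUND at 12 h, and -2.20 for FOS, 0.44 for FOSL2, -0.69 for JUNB, and 0.58 for JUND at 24 h.

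Between 3 and 24 h the arsenic effect changed by -0.73 for JUN and -0.74 for JUND, and the mercury effect by -0.65 for FOSL2 and -0.83 for JUND. In the added tests the mercury effect changed by -0.50 for JUN between 1.5 and 3 h and by 0.71 for JUNB between 12 and 24 h. Comparisons of the same time share libraries, so these values are not independent of one another.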

How the results depend on the processing

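The counts here are of pairs of member and time, and the shares of all genes are those given with each time above. Over the 5 times, 0 pairs were called higher and 6 lower with arsenic, 5 higher and 0 lower with cadmium, and 12 higher and 3 lower with mercury. Between arsenic and cadmium, arsenic and mercury, and cadmium and mercury, 11, 16, and 8 pairs differed. Non-treated cells gave 2 calls over time, and the planned changes from 3 to 24 h gave 4. No call reversed under any alternative run. Requiring an LFC beyond 1 in either direction left 0 lower with arsenic, 1 higher with cadmium, 5 higher and 0 lower with mercury, 2, 5, and 1 between metals, 0 in non-treated cells, and 0 changes. With only the 6 libraries of a comparison, 3 were higher with cadmium. With the replicate number as a block, the counts were 0, 7, 5, 0, 12, and 3 for the metals. They were 11, 16, and 8 between metals, with 2 in non-treated cells and 5 changes. No pairing by replicate number was seen between metal and non-treated libraries. Leaving out 1 library at a time gave 0 to 1 higher and 4 to 7 lower with arsenic, 4 to 5 higher and 0 to 0 lower with cadmium, 11 to 12 higher and 1 to 3 lower with mercury (1 without mercury 24 h replicate 3), 10 to 12, 13 to 16, and 7 to 9 between metals, 1 to 2 in non-treated cells, and 3 to 5 changes. Calls of FOS and FOSB rest on few counts, and the stricter filter could not test these genes. Of the 67 calls, 47 held under all alternatives run other than the LFC limit. The added tests of adjacent times are not among the 67.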

Other observations

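Replicate 3 gave the lowest FOSB level with cadmium at 24 h (2.15 CPM against 9.52 and 11.4) and with mercury at 12 h (0.958 against 5.31 and 6.46), and the lowest FOS level with cadmium (1.07 against 2.27 and 3.14) and mercury (2.64 against 15.4 and 12.7) at 24 h. With mercury at 24 h FOSB in replicate 3 was 20.8 CPM, between the other libraries (23.5 and 17.0). With cadmium replicate 3 gave the highest FOSB level at 6 h (3.19 CPM against 0.595 and 1.17) and at 12 h (3.50 against 0.905 and 0.972). With mercury at 12 h FOS in replicate 3 was 1.92 CPM, against 0.817 and 1.94 CPM. Replicate 3 was thus not the lowest throughout. These libraries were singled out after their values were seen.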
